A study of Mus musculus with 2 samples.

Results

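The 42 genes described here encode proteins that make ribosomes in the nucleolus. They were taken by symbol from the gene list of the experiment, and all 42 were among its 27998 genes. No measured value served as a rule, but the genes were chosen with earlier results of these data known. Ribosome biogenesis starts when RNA polymerase I copies the ribosomal RNA genes. Small nucleolar ribonucleoproteins (snoRNPs) of the box C/D and box H/ACA kinds then guide the chemical modification of that RNA, and many assembly factors fold and cut it while ribosomal proteins join the small and the large subunit. Red cell precursors make many ribosomes while they grow and divide, and their nucleolus shrinks as they mature into cells that hold mostly haemoglobin.

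The experiment was CITE-seq, in which transcripts and antibodies that carry DNA barcodes are counted in the same single cells. The cells came from pooled fetal livers of wild-type C57BL/6 mouse embryos at e13.5, from which part of the Ter119-positive cells had been removed. There was 1 cDNA library and 1 antibody library of the same cells and no treatment or control group, so there is no replicate error and no test is given. The 95% intervals below come from the number of UMIs alone, and how much another animal, library or gate would change a value is not part of them.

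Cells with few antibodies of other lineages were placed in 6 stages by Ter119, a red cell antigen, and CD71, the transferrin receptor. S0-low, S0-medium and S1 have low Ter119 (under 24.5 antibody counts) and rising CD71, with borders at 233.5 and 765 counts. S2 has intermediate Ter119 and high CD71, S3 has high Ter119 (above 88.5 counts) and high CD71, and S4/S5 has high Ter119 and lower CD71. The stages hold 1510, 1054, 612, 1297, 855 and 881 cells in this order, 6209 in all. Median depth was 6146, 10282, 10152, 6021, 4501 and 3944 UMIs (unique molecules counted) per cell. Globin transcripts took 1.05%, 1.39%, 2.80%, 13.1%, 38.0% and 64.1% of the UMIs. The 8 erythroid markers, all detected in every group of cells, summed to 5433 CPM in S0-low, 11270.3 CPM in S0-medium and 19873 to 218981 CPM from S1 on, against 4249 to 7145 CPM in the clusters named for other cell types, so S0-low was not set apart by them. S0-low was mixed: 565 of its cells (37.4%) lay in clusters named from markers of other cell types, 329 of them in a myeloid-like cluster. The 5 other stages together held 27 such cells. Unnamed clusters are not counted here, such as those led by Ngp, Camp and S100a9 or by Mest, Sparc and Serpinh1.

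The 42 genes gave 464600 UMIs over the 6 stages. Npm1 alone gave 150554, Ncl 63231 and Nhp2 37764, so 3 genes made up 54.1% of the sum. The lowest was Heatr1 with 499 UMIs, and all 42 passed the minimum of 50 UMIs that 10394 genes met. Levels below are in CPM: each cell's UMIs were scaled to a total of 1000000 and a gene's scaled value was averaged over the cells of a stage, so a level is a share of the transcripts. Counts come from the 3′ end of transcripts and are not scaled by length.

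The summed level of the 42 genes was highest in the stages with low Ter119 and fell as Ter119 appeared. S0-low had 12823 CPM (12749 to 12897), S0-medium 13354 CPM (13277 to 13431) and S1 10499.6 CPM (10414 to 10586). It was 4787 CPM in S2 (4742 to 4832), 2003 CPM in S3 (1962 to 2044) and 1489 CPM in S4/S5 (1449.9 to 1529). S3 thus held 0.191 times the level of S1 (0.187 to 0.195). The median cell held 13262 CPM in S0-low and, from S0-medium on, 13922, 10943, 3915, 1409 and 1187 CPM, the same order. Cells of S2 were spread widely, with quartiles of 1973 and 6959 CPM. The S2 level also depended on the gate. With gates from log10 antibody counts the sum was 13416 CPM in S1, 9094 CPM in S2 and 2568 CPM in S3. A log ratio within each cell gave 6254 CPM in S2, and a Gaussian mixture 5685 CPM.

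**Figure D1:**
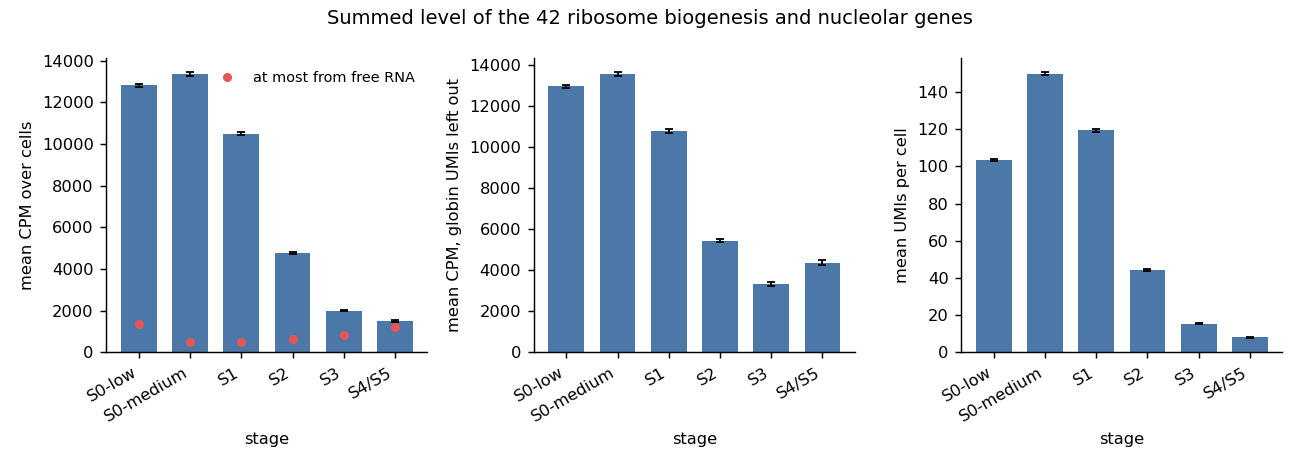
Summed level of the 42 genes in the 6 stages. Shown are mean CPM (left), mean CPM with globin UMIs left out of the total (middle) and mean UMIs per cell (right). Bars give the level and whiskers the 95% counting interval. Red dots give the most that free RNA could give if its make-up is that of all cells pooled. With all S0-low cells counted, the sum is highest in S0-medium on each scale (13354 CPM). It is lowest in S4/S5 in CPM (1489) and UMIs per cell (8.04), but lowest in S3 (3335 CPM) with globin left out.

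CPM is a share, and globin filled a growing part of it. With globin UMIs left out of the total, the summed level was 12955, 13549.7, 10785, 5442 and 3335 CPM from S0-low to S3 and 4359 CPM in S4/S5. The ratio of S3 over S1 was then 0.309 (0.301 to 0.317). In UMIs per cell the sum was 103, 149.8, 119, 44.3, 15.4 and 8.04. When each cell was thinned to 2000 UMIs, the median cell held a UMI of 12, 12, 10, 5, 2 and 2 of the 42 genes, against 22, 27, 24, 11, 5 and 4 unthinned.

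Gene by gene, the highest CPM lay in S0-low for 13 of the 42 genes and in S0-medium for 29. These counts include the S0-low cells that lay in named clusters. Without cells of named clusters the sum was highest in S0-low under the main gates, at 14716 CPM against 13389.5 CPM in S0-medium. Other gates put S0-medium highest without those cells. It had 14896.5 CPM against 14331 in S0-low with gates from log10 antibody counts. With a log ratio within each cell it had 15278.9 against 14296 CPM, and with a Gaussian mixture 14566.7 against 14294.7 CPM. Some differences between these stages were small, as for Tsr1 at 1.004 (0.871 to 1.16) in S0-medium over S0-low. The lowest CPM lay in S4/S5 for 38 genes and in S3 for Rrp9, Pes1, Nop2 and Wdr74. For those lowest in S3, each interval of S4/S5 over S3 includes 1. The order turned when globin was left out, and the lowest level lay in S3 for 31 genes, in S4/S5 for 10 and in S2 for Npm3. Between S0-low and S0-medium no member differed by a fold of 2 or more, while 2.38% of all genes rose and 15.4% fell that far. From S0-medium to S1 the level was lower for all 42 genes, with ratios from 0.514 for Rrp1b to 0.992 for Noc4l. Without globin in the total 41 were lower, and Noc4l was at 1.01 (0.900 to 1.13). The share of all genes that were lower is not given for this step or for the later steps. From S1 to S2 the level was lower for all 42 again, and 26 fell by a fold of 2 or more, against 19.3% of all genes. Leaving globin out, 19 fell that far, against 13.7% of all genes. Counts for the steps into and out of S2 come from the main gates alone, and the S2 level depended on the gate. From S2 to S3 all 42 were lower still, and 36 fell by a fold of 2 or more, against 32.1% of all genes. Without globin in the total 7 fell that far (Nolc1, Nop56, Nop58, Heatr1, Pno1, Bop1 and Wdr74), against 11.2% of all genes, 41 were lower and Npm3 was higher.

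**Figure D2:**
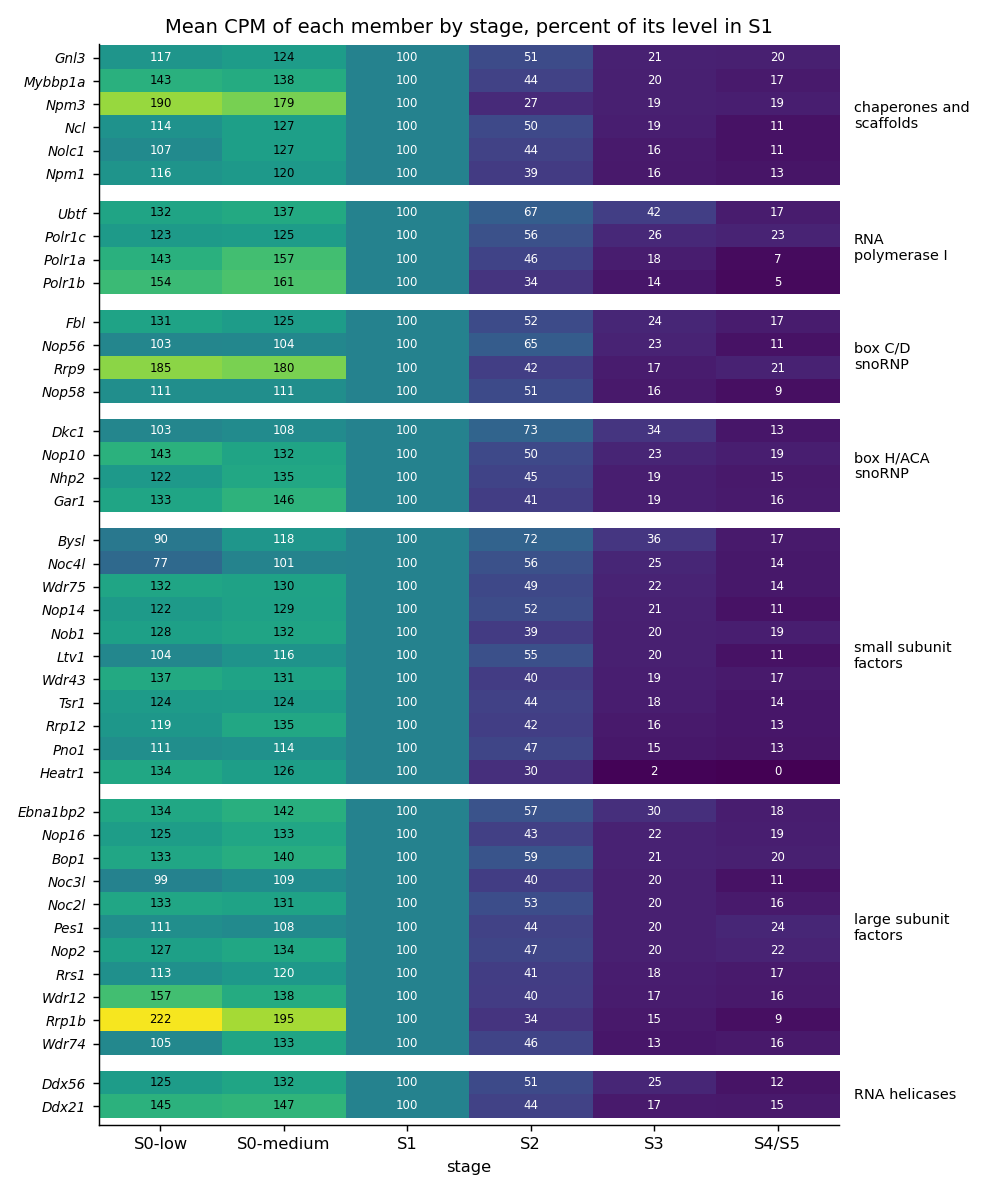
Mean CPM of each of the 42 genes in each stage as a percent of its level in S1 (numbers in the cells, brighter colours for higher values), grouped by role and sorted by S3. The members stand at a median of 131% in S0-medium, 45.8% in S2, 19.7% in S3 and 15.5% in S4/S5, with Rrp1b, Npm3 and Rrp9 brightest before S1 and Ubtf, Bysl and Dkc1 brightest in S3.

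The nucleolar chaperones and scaffold proteins held the largest part of the sum. Their 6 genes together measured 6820.4, 7174, 5724, 2402, 970.2 and 740.3 CPM from S0-low to S4/S5. Npm1 (nucleophosmin, a histone chaperone of the nucleolus) measured 4134, 4287, 3558, 1396, 561 and 469 CPM. RefSeq places it on GRCm38.p6 on chromosome 11 from 33152498 to 33164142. The gene has processed copies in the genome with which its reads may be shared, so its level is uncertain. Ncl (nucleolin, which binds ribosomal RNA precursors) measured 1668, 1846, 1457, 729.7, 278 and 156 CPM. Nolc1, a phosphoprotein that carries snoRNPs, measured 260.4, 308, 243, 107, 39.0 and 27.0 CPM. With all S0-low cells counted, these 3 genes were highest in S0-medium. They kept 0.861, 0.874 and 0.932 of the S0-low level in S1.

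Npm3, a small relative of nucleophosmin, went down earlier. It measured 519.9, 488, 273, 73.8, 53.1 and 51.9 CPM. Its S1 level was 0.525 times that of S0-low (0.496 to 0.556) and its S2 level 0.270 times that of S1 (0.247 to 0.295), the lowest ratio of S2 over S1 among the 42. In S3 over S2 its ratio was 0.720, the highest of the 42, and in S4/S5 over S3 it was 0.977 (0.807 to 1.18). With globin left out both were above 1, at 1.13 (0.948 to 1.34) and 1.54 (1.23 to 1.92). If its make-up is that of all cells pooled, RNA free in the droplets could give up to 846 of the 2003 CPM of the 42 genes in S3. In S4/S5 it could give up to 1215 of the 1489 CPM. Its part in these late ratios was not tested. Gnl3 (nucleostemin, a nucleolar GTPase) and Mybbp1a, the other 2 genes of this group, were at 0.205 and 0.202 of their S1 level in S3.

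The genes of RNA polymerase I transcription parted from each other. Polr1b, the second largest subunit of the enzyme, measured 16.4, 17.2, 10.7, 3.65, 1.47 and 0.572 CPM, and its last 2 values rest on 12 and 4 UMIs. Ubtf, the factor that opens the ribosomal RNA genes and recruits the enzyme, measured 175, 182, 133, 89.7, 55.5 and 23.1 CPM. Ubtf kept 0.417 of its S1 level in S3 (0.358 to 0.483), the highest ratio of the 42, and Polr1b kept 0.138 (0.0607 to 0.279). The largest subunit, Polr1a, and Polr1c, which RNA polymerase III shares, were at 0.176 and 0.261. Their intervals do not overlap that of Ubtf.

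In the box C/D snoRNP, which methylates ribosomal RNA, fibrillarin (Fbl) is the enzyme. It measured 278, 265, 213, 110.0, 52.0 and 36.5 CPM. Its core partner Nop56 measured 257, 260.4, 249, 163, 56.4 and 27.1 CPM, so that it was level up to S1 (0.971 of S0-low, 0.907 to 1.04) and lower by S3 (0.226 of S1). Nop58, the other core partner, was at 0.899 in S1 over S0-low and 0.156 in S3 over S1. Rrp9, which binds the U3 snoRNA, was lower in S1 already. It measured 71.3, 69.2, 38.4, 16.05, 6.57 and 8.12 CPM, with a ratio of S1 over S0-low of 0.539 (0.463 to 0.626).

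The box H/ACA snoRNP turns uridine of ribosomal RNA into pseudouridine, and Dkc1 (dyskerin) is its enzyme. Dkc1 measured 180.5, 189, 175, 127, 60.2 and 23.1 CPM. It kept 0.725 of its S1 level in S2 (0.662 to 0.794), the highest of the 42 in CPM, and 0.344 in S3 (0.299 to 0.396). Bysl was close in S2, at 0.718 (0.620 to 0.831). With globin left out Bysl was the highest there, at 0.825 against 0.816 for Dkc1. The 3 small partners of Dkc1 were lower earlier. Nhp2 measured 1052, 1165, 864, 390.4, 162 and 131 CPM. Nop10 measured 891, 818, 621, 309, 142 and 118 CPM, and Gar1 measured 325, 357, 245, 99.3, 45.7 and 40.0 CPM. Their ratios of S3 over S1 were 0.188, 0.229 and 0.187, and each interval ended below that of Dkc1. In S4/S5 over S3 the order was the other way round, with 0.383 (0.297 to 0.491) for Dkc1 and 0.808, 0.829 and 0.875 for Nhp2, Nop10 and Gar1. Leaving globin out, Dkc1 was at 0.634 and the partners were above 1, at 1.44, 1.46 and 1.51. The part of free RNA in these late ratios was not tested.

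Of the 11 small subunit factors, 9 had a lower level in S1 than in S0-low, and all 11 fell by a fold of 2 or more from S1 to S3, as 60.2% of all genes did. Noc4l and Bysl were the 2 exceptions before S1 in CPM, while in UMIs per cell all 11 were higher in S1 than in S0-low. Noc4l, a partner of Nop14, measured 67.3, 87.8, 87.2, 48.7, 21.4 and 12.5 CPM, with a ratio of S1 over S0-low of 1.29 (1.15 to 1.46), the highest of the 42. Bysl (bystin) measured 57.2, 74.6, 63.2, 45.3, 22.7 and 10.5 CPM, and its ratio of 1.11 (0.964 to 1.27) has an interval that includes 1. Bysl kept 0.360 of its S1 level in S3 (0.286 to 0.450).

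Heatr1, a large scaffold of the early small subunit particle, was lowest of the 42 in S3 relative to S1. It measured 15.5, 14.6, 11.6, 3.50 and 0.205 CPM from S0-low to S3. The S3 value rests on 3 UMIs against 85 in S1, a ratio of 0.0177 (0.00332 to 0.0554). In S4/S5 it had 0 of 3786253 UMIs, and a count of 0 allows up to 3. Pno1, which acts late in the cleavage of the small subunit RNA, measured 142, 146, 128, 60.4, 18.8 and 16.4 CPM, or 0.147 of S1 in S3 (0.117 to 0.182). The other 7 factors (Wdr43, Wdr75, Nop14, Rrp12, Ltv1, Nob1 and Tsr1) kept between 0.160 (Rrp12) and 0.223 (Wdr75) of their S1 level in S3.

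Of the 11 large subunit factors, all but Noc3l were lower in S1 than in S0-low in CPM. In UMIs per cell only Wdr12 and Rrp1b of them were lower in S1. Rrp1b measured 112, 98.5, 50.6, 17.1, 7.79 and 4.76 CPM. It was the 1 member whose level fell by a fold of 2 or more from S0-low to S1, with a ratio of 0.451 (0.396 to 0.512), and 22% of all genes fell that far. Its ratio did not reach a fold of 2 in UMIs per cell (0.726), with summed UMIs (0.547), without the lineage filter (0.507) or with gates from a Gaussian mixture (0.790) or a log ratio within cells (0.867), and it turned to 1.06 with gates from log10 antibody counts. No member rose that far, and 4.4% of all genes did. Wdr12, which works in a complex with Pes1 and Bop1, measured 184, 163, 118, 47.2, 19.9 and 18.5 CPM, with a ratio of S1 over S0-low of 0.638 (0.582 to 0.700). Pes1 and Bop1 were at 0.900 and 0.750 in the same comparison.

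Wdr74 measured 123, 155, 117, 53.8, 15.7 and 18.2 CPM, or 0.134 of S1 in S3 (0.104 to 0.170). Ebna1bp2 measured 285, 303, 213, 122, 64.9 and 38.6 CPM, and kept 0.305 (0.266 to 0.348). Noc3l, with 693 UMIs in all, measured 18.3, 20.04, 18.4, 7.43, 3.66 and 1.98 CPM, and its ratio of S1 over S0-low of 1.01 (0.775 to 1.30) includes 1. In S3 over S1, Rrp1b was at 0.154 and Wdr12 at 0.169, and Pes1, Bop1, Nop2, Nop16, Rrs1, Noc2l and Noc3l lay between 0.180 and 0.218. The RNA helicases Ddx21, which acts in RNA polymerase I transcription, and Ddx56 were at 0.165 and 0.246.

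From S1 to S3 all 42 genes fell by a fold of 2 or more, against 60.2% of all genes. The median ratio of the 42 was 0.197, and that of all 10110 genes compared was 0.417. Of the 115 other ribosome biogenesis genes on a wider list, 106 fell that far, with a median of 0.260. Of 83 genes for cytoplasmic ribosomal proteins, 76 did, with a median of 0.375. With globin left out, 39 of the 42 fell by a fold of 2 or more, against 31.2% of all genes, 76 of the 115 and 16 of the 83. The 3 that did not were Ubtf at 0.673, Bysl at 0.581 and Dkc1 at 0.564. The medians were then 0.320 for the 42, 0.425 for the wider list, 0.575 for the ribosomal protein genes and 0.680 for all genes.

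**Figure D3:**
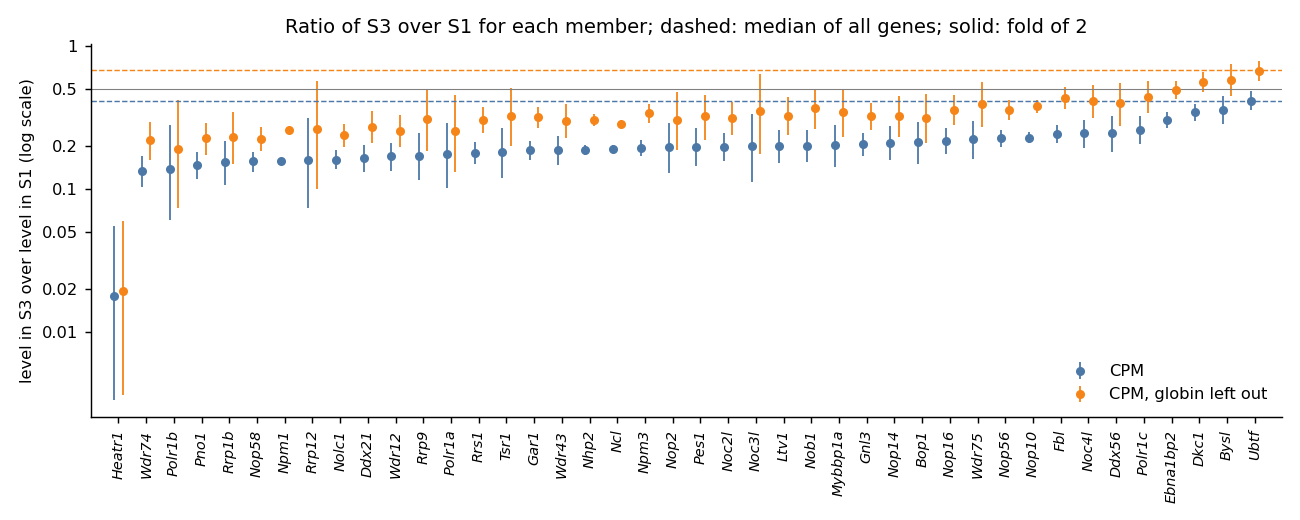
Ratio of the level in S3 over the level in S1 for each of the 42 genes (log scale), in CPM (blue) and in CPM with globin left out (orange), with 95% counting intervals as whiskers. All blue points lie under the line at 0.5 and all but Ubtf's lie under the blue dashed line, the median of all genes (0.417), Ubtf's falling on it, while Heatr1 (0.0177) stands far below the rest.

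On the wider list, the lowest ratios of S3 over S1 were 0.0792 for Wdr36, 0.103 for Cd3eap and 0.115 for Mdn1. Wdr36 acts in the small subunit particle, Cd3eap is a subunit of RNA polymerase I, and Mdn1 (midasin) is the large ATPase of the large subunit pathway. The highest were 0.636 for Exosc9, a subunit of the RNA exosome, 0.605 for Znhit6, a box C/D snoRNP assembly factor, and 0.557 for Pak1ip1.

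The order of cells along the antibodies, with named clusters left out, showed the fall in finer steps. Along CD71 the highest groups had 70 to 190 antibody counts, which is under the upper border of S0-low (233.5). By stage, with all S0-low cells counted, the sum was highest in S0-medium. Among 2596 Ter119-low cells outside the named clusters, split into 10 equal groups by CD71, the summed level was 14456 CPM in the lowest group and 14919 and 14874 CPM in the next groups. From there it was lower in every next group, down to 9601 CPM in the highest. The ribosomal protein genes stayed between 193969 and 203762 CPM over the same groups. Of the 42 genes, 41 were lower in the last group than in the first, with a median ratio of 0.664. Rrp1b was lowest at 0.305, and Noc4l was the exception at 1.16. In UMIs per cell 28 of the 42 were higher in the last group, where the median depth was 10059 UMIs against 5474 in the first.

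Among 2722 CD71-high cells, split by Ter119, the summed level was 11637, 9976, 7645, 5829.6, 4655, 3659, 2689, 2180.4, 2038 and 1669 CPM. It first stood at or under 0.5 of the first group in the fifth. The ribosomal protein genes did so by the eighth group, at 97140.4 CPM against 201857 in the first. With globin left out the sum of the 42 was again under 0.5 by the fifth group, and the ribosomal protein genes did not reach it in any. In CPM, 5 genes were under 0.5 by the third group (Npm3, Polr1b, Rrp9, Heatr1 and Rrp1b), 13 more by the fourth and 16 more by the fifth. The last were Noc4l, Ltv1, Bop1 and Ebna1bp2 in the sixth group, Ubtf, Nop56 and Bysl in the seventh, and Dkc1 in the eighth. With globin left out, Npm3, Polr1b, Heatr1 and Rrp1b were again first, in the third group, Rrp9 moved to the fifth, and Nop56 and Dkc1 came in the eighth, Bysl in the ninth and Ubtf in none. The same counts were not made over all genes along either antibody. Between the stages S1 and S3, 60.2% of all genes fell by a fold of 2 or more.

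**Figure D4:**
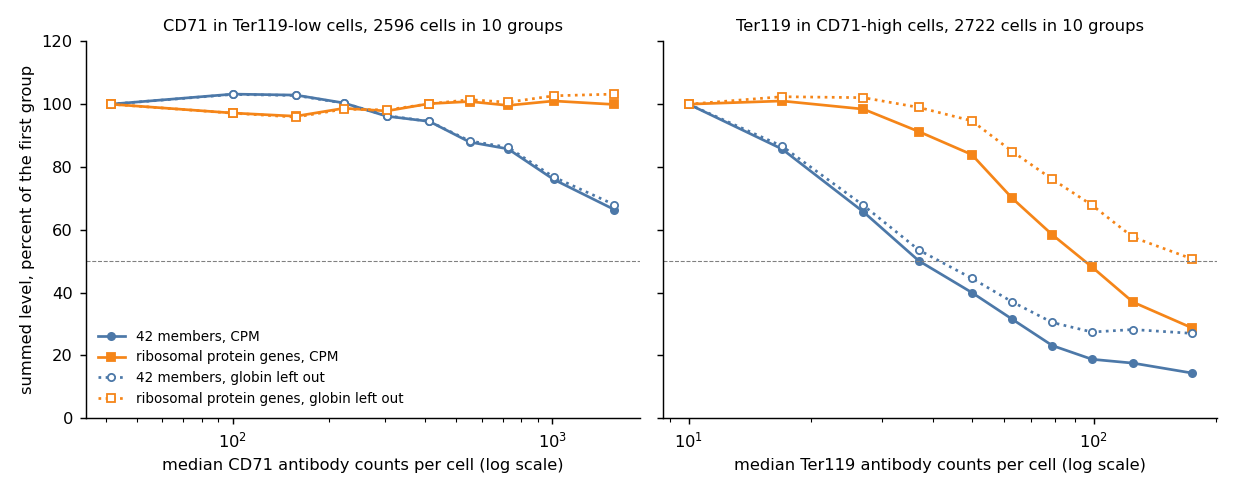
Summed level of the 42 genes (blue circles) and of the ribosomal protein genes (orange squares) as a percent of the first of 10 groups of cells, against the median antibody count of the group on a log scale; solid lines are CPM and dotted lines leave globin out. Along CD71 (left) the 42 genes go from 14456 to 9601 CPM while the ribosomal protein genes stay level, and along Ter119 (right) the 42 genes pass 0.5 of the first group 3 groups before the ribosomal protein genes do.

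The summed level in S1 was 0.819 times that in S0-low (0.811 to 0.827), with 39 of the 42 genes lower, a median of 0.80, and a median of 0.833 for all genes. How many of all genes were lower is not given for this comparison. This comparison depends on which cells S0-low holds. With the cells of named clusters left out, the level of S0-low was 14716 CPM and the ratio 0.715. Gates from a Gaussian mixture, from log10 antibody counts or from a log ratio within each cell put 609 to 638 cells in S0-low, of which 70.8% to 72.3% lay in named clusters, and gave ratios of 1.09, 1.19 and 1.12. With the named clusters left out, the same gates gave 0.859, 0.938 and 0.906. In UMIs per cell the ratio was 1.16, and only Npm3, Mybbp1a, Polr1b, Rrp9, Nop10, Wdr12 and Rrp1b were lower in S1. Single genes depend on these choices too. Of 104 values for the 8 genes named by this ratio, over 13 other settings, 55 lay within the main counting interval.

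Within S0-low, cells with high cKit, the stem cell factor receptor of early progenitors, had a summed level of 13595 CPM in 900 cells, and cells with low cKit 11684 CPM in 610 cells. All 42 genes were higher in the cKit-high cells, with ratios from 1.01 for Gnl3 to 1.83 for Rrp12 and a median of 1.17. How many of all genes were higher is not given here. None of the 42 rose by a fold of 2 or more, and 3.89% of all genes did. Hepatocyte markers summed to 16066 CPM in the cKit-low and 235 CPM in the cKit-high cells. Their part in the difference was not tested. The 563 cKit-high cells outside named clusters had the highest level of all groups, 15325 CPM. Against them S1 was at 0.685 (0.678 to 0.693). Of the 42 genes 41 were lower in S1, and Npm3, Polr1b, Rrp9 and Rrp1b fell by a fold of 2 or more, against 15% of all genes. The share of all genes that were lower against these cells is not given.

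In the clusters of other cell types, which share cells with S0-low, the 42 genes were lower than in the cKit-high cells. The 656 myeloid-like cells had 9419 CPM, the 300 megakaryocyte-like cells 8966 CPM, the 189 hepatocyte-like cells 6223 CPM and the 82 macrophage-like cells 4347 CPM. The counting intervals of these 4 groups did not overlap, from 9321 to 9517 CPM at the top to 4162 to 4538 CPM at the bottom. The myeloid-like cluster also had Plac8 and Cd34, markers of early progenitors, among its leading genes. Ribosomal protein genes took 20.3% of the transcripts of the myeloid-like and 19.1% of the megakaryocyte-like cells, and 13.0% of those of both the hepatocyte-like and the macrophage-like cells, against 20.1% in the cKit-high cells outside named clusters.

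**Figure D5:**
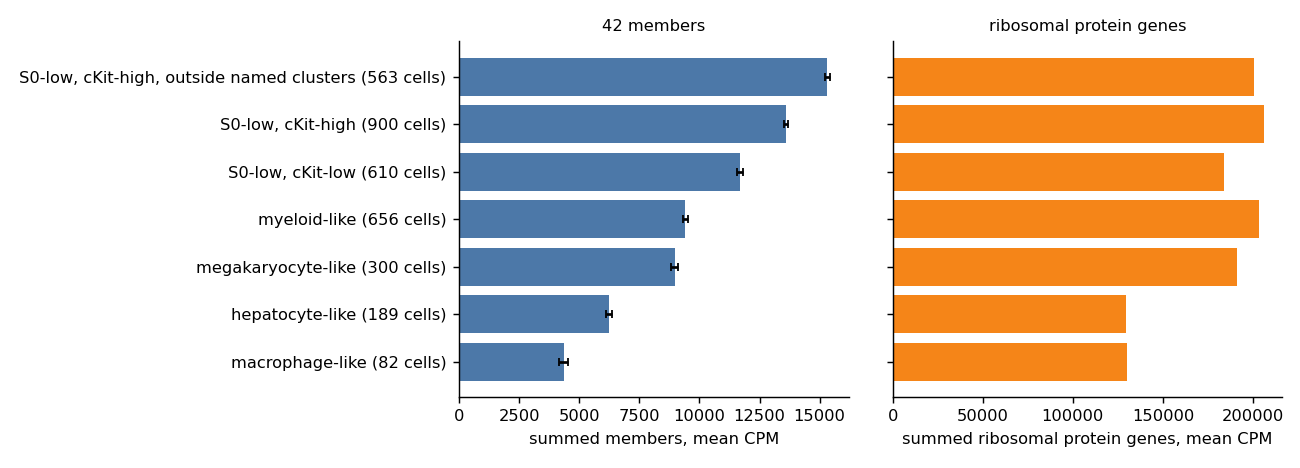
Summed level of the 42 genes (left) and of the ribosomal protein genes (right) as mean CPM in groups of S0-low cells and in clusters named from markers, with 95% counting intervals for the 42 genes. The 42 genes go from 15325 CPM in cKit-high cells outside named clusters to 4347 CPM in macrophage-like cells.

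From S3 to S4/S5 the summed level in CPM was 0.743 times as high (0.719 to 0.769). Of the 41 genes compared, 37 were lower and 7 fell by a fold of 2 or more, against 39.2% of all genes. These were Polr1a, Dkc1, Polr1b, Ubtf, Bysl, Nop56 and Ddx56, at 0.379 to 0.493. The median of the 41 was 0.813 and that of all genes 0.563. How many of all genes were lower is not given. With globin left out the direction turned: the sum was 1.31 times as high (1.26 to 1.36), and 32 of the 41 genes were higher. Pes1, Rrp9, Wdr74 and Nop2 rose by a fold of 2 or more, at 2.13 to 2.29, against 10.9% of all genes. Such rises were thus about as frequent as among all genes. Their intervals started at 1.41 for Pes1, 1.12 for Rrp9, 1.44 for Wdr74 and 1.14 for Nop2. The median of the 41 was 1.43 and that of all genes 0.936. How many of all genes were higher on this scale is not given.

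How RNA free in the droplets moved with this step depended on the scale and on the marker list. Hepatocyte markers measured 1344 CPM in S3 and 2480.1 CPM in S4/S5 with globin left out, although these cells are not hepatocytes. In CPM these markers were nearly level, at 708 and 726. From the markers of 4 other cell types, free RNA could make up at most 8.88% of the transcripts in S3 and 12.8% in S4/S5. This limit assumes that free RNA has the make-up of all cells pooled, and no empty droplets were used to check it. Macrophage markers set the limit in S3 and gave 13.3% in S4/S5. Megakaryocyte markers set it in S4/S5 and gave 14.7% in S3. Free RNA could then give up to 846 of the 2003 CPM of the 42 genes in S3 and up to 1215 of the 1489 CPM in S4/S5. With that share taken off each gene, down to 0 at the least, and the rest scaled back to 1000000, the sum was 1271 CPM in S3 and 335 CPM in S4/S5, a ratio of 0.263. In S0-medium and S1 it could give at most 514 and 512 CPM. Whether the late levels come from the cells was not tested.

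Myc, a transcription factor that binds the E-box CACGTG and acts on many ribosome biogenesis genes, was lower in each next stage in CPM. Its level was 145, 104, 58.6, 26.0, 13.9 and 9.97 CPM from S0-low to S4/S5, with 1799 UMIs in S0-low and 43 in S4/S5. With globin left out it was 148, 105, 60.0, 30.7, 27.1 and 31.8 CPM, so it was not lower in S4/S5 than in S3. The ratio of S1 over S0-low was 0.403 (0.357 to 0.453).

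The promoters were read for the letters of that E-box, of the GC box GGGCGG and of CCAAT, on both strands, in windows of 300 bases around annotated starts (RefSeq, GRCm38.p6). The ends of these motifs can overlap. Windows were at hand for 37 of the 42 genes and not for Npm1, Fbl, Rrp12, Bop1 and Rrs1. The E-box stood in 7 of the 37 genes (18.9%), namely Mybbp1a, Wdr43, Ltv1, Pno1, Tsr1, Pes1 and Nop2, and in 8.09% of 27025 genes. The GC box stood in 75.7% of the 37 and 38.2% of all, and CCAAT in 32.4% and 41.1%. The 27025 genes were not limited to those with at least 50 UMIs, a minimum that all 42 members met. Of the 7 E-boxes, 6 lay after the start and 1, that of Nop2, lay 60 bases before it. Its surroundings at chr6:125131811-125131840 on the plus strand are shown with the E-box in capitals because it is the site upstream of a start.
Nop2: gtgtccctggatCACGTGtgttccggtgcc
Nop2, a methyltransferase of large subunit RNA, measured 42.9, 45.0, 33.6, 15.9, 6.62 and 7.48 CPM. The 7 genes with the E-box and the 30 without it had nearly the same median ratio of S3 over S1, 0.197 and 0.199. Binding of Myc to these sites was not measured, and a part of Myc in the fall was not tested.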

How the data were processed

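Fetal liver cells were measured by CITE-seq on the 10x platform. The deposited values are UMI counts per gene and cell, which the authors made with Cell Ranger on mm10, and antibody counts per cell, both before normalization and filtering. Whether antibody reads of 1 molecule were merged is not given in the sources used here. The library held 7863 cells and a median of 5707 UMIs per cell (2510 to 38047), and no barcode was repeated.

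Limits of 300 and 5000 genes and of 9% mitochondrial UMIs left 7355 cells. Scrublet, at an expected rate of 6%, called 128 of all cells doublets (1.63%), and the 111 of them within the limits were left out. Of the remaining 7244 cells, 6424 had lineage antibody counts up to 95.8, the median plus 2 scaled deviations on a log scale. Each antibody was put on a centered log ratio over all cells, k-means then set the gates, and 215 cells fell in no stage. Clusters (Leiden, resolution 0.8, 16 components, 30 neighbours) were made without the 42 genes and named from markers.

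Levels are means of CPM over cells. Intervals use effective counts of the weighted sums. A call is a fold of 2 between groups, for genes with at least 50 UMIs over the stages, leaving out genes with 3 or fewer UMIs in both groups. A group at 0 was set to 3 counts. In simulated counts of S3 over S1 (7600 genes, 200 changed), all 200 had the right direction and 193 intervals held the true ratio. These counts were drawn with the same rate in all cells of a group, as the intervals assume. They check the calculation alone, and not the spread between cells, libraries or gates. Free RNA was estimated as the lowest ratio, over 4 lists of other cell types' markers, of the marker level in a stage to that in the pooled library, and its share of the 42 genes from the pooled profile.

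The members, lists and gates were chosen with earlier results of these data known. Values in all stages are printed for the 10 members with the most UMIs and for the 4 highest and 4 lowest in S1 over S0-low and S3 over S1. Nop2 was added because its promoter sequence is shown, and other members are named beside groups or complexes after their values were seen. Of the wider list, the 3 highest and 3 lowest are named. Python 3.11.15, numpy 2.4.6, scipy 1.17.1, scanpy 1.11.5 and scikit-learn 1.9.0 were used with seed 7.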

Additional observations from a re-analysis of the deposited data

How the results depend on the processing

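The fall of the summed level from S1 to S3 kept its direction under every alternative run. The main ratio of 0.191 became 0.129 in UMIs per cell, 0.309 without globin, 0.219 with doublets kept, 0.120 with free RNA subtracted, 0.170 with a Gaussian mixture, 0.135 with the log ratio within cells, 0.209 without the lineage filter, 0.245 with summed UMIs over summed UMIs, 0.217 without the 3 members with the most UMIs and 0.185 with a linear lineage limit, an alternative added after the data were seen. The number of members at or under 0.5 of S1 in S3 was 42, and 39 to 42 under the alternatives. Single genes depended on the settings too. Ratios of S3 over S1 were taken over 13 other settings for 17 genes, those with the most UMIs and those named by this ratio. Of these 221 values, 119 lay within the main counting interval. All 221 were below 1, from 0 to 0.673.

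The ratio of S1 over S0-low, 0.819, turned to 1.16 in UMIs per cell, 1.09 with a Gaussian mixture, 1.19 with log10 antibody counts and 1.12 with the log ratio within cells. With named clusters left out, alternatives added after the data were seen, these 3 gates gave 0.859, 0.938 and 0.906, and the main gates 0.715. It was 0.685 for cKit-high cells outside named clusters, 0.832 with thinned cells, 0.833 without globin, 0.790 with free RNA subtracted, 0.845 without limits on genes or mitochondria, 0.908 without the lineage filter, 0.872 with summed UMIs, 0.774 without the top 3 and 0.796 with the linear limit. For the value of 0.790, free RNA in S0-low was set at 14.2% from megakaryocyte markers, while hepatocyte markers gave 125% there. S0-low holds cells of the named clusters, so these markers may come from its cells, and 0.790 is uncertain. Rrp1b turned to 1.06 with log10 antibody counts.

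The ratio of S4/S5 over S3, 0.743, turned to 1.31 without globin. It was 0.523 in UMIs per cell, 0.680 with doublets kept, 0.263 with free RNA subtracted, 0.608 with log10 antibody counts, 0.913 with the log ratio within cells, 0.816 without the lineage filter and 0.652 with summed UMIs. Values for the named clusters, for S2 under other gates and for free RNA are given above, and the cause of these moves was not tested.

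No paired analysis was possible because there is 1 library of cells and no test. Depth limits Heatr1, Polr1b, Rrp12, Noc3l and Polr1a most, with 3 to 26 UMIs each in S3.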
